A study of Bos taurus with 129 samples.

Results

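Neutrophil granule protein genes encode the enzymes, binding proteins and antimicrobial proteins that neutrophils store in their granules. Of the 32395 genes in the count table of a study of whole blood from stocker cattle, 10 were taken by symbol: MPO, ELANE, AZU1 and BPI of the azurophil granules, LTF, LCN2, PGLYRP1, MMP8 and CHI3L1 of the specific granules, and MMP9 of the gelatinase granules. All 10 symbols were present, and 9 passed the filter on low counts and entered the tests. MMP8 did not pass.

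The study followed newly received crossbred beef steers at high risk of bovine respiratory disease (BRD), the pneumonia complex of transported cattle, and sequenced polyadenylated RNA from whole blood drawn at days 0, 13, 28, 45 and 60. The 26 animals used here comprised 12 labelled healthy, 4 in each of the treatments AAC, COMBO and INR, and 14 labelled BRD, of which 4 were AAC, 3 COMBO and 7 INR. The INR diet held trace minerals as inorganic sulfates and the AAC diet held them complexed with amino acids. COMBO cattle received the AAC diet together with an oral drench of trace minerals and vitamins before shipment, at day 0 and whenever an animal was treated for illness. All of the groups were vaccinated at day 0 and again at day 21 and were given doramectin, a dewormer, at day 0. The cattle had been shipped and their history before purchase was unknown. The labels did not give the days on which BRD-labelled cattle were ill or were given drugs, so days could not be aligned to illness. Each treatment had its own pens by the labels, so that treatment and pen group cannot be told apart. Pen here means the pen of the label, which each animal kept over all days. Per the study's methods the steers were moved between pens at intervals to account for effects of the pen itself. Day cannot be told apart from time since transport, vaccination, deworming and diet change. One healthy AAC library of day 13 (animal 48) was left out by the authors, which leaves 59 healthy and 70 BRD libraries of 31613545 to 61692136 counts each.

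Neutrophils fill their granules in sequence as they mature in the bone marrow. Azurophil granules, with myeloperoxidase and the serine proteases, are made in promyelocytes, specific granules with lactoferrin follow, and gelatinase granules come last. The genes are transcribed mainly in these marrow precursors, and mature neutrophils in blood keep the proteins but few of the transcripts of the azurophil genes, although immature cells released during inflammation, and for some of the genes monocytes, eosinophils or other cells, can carry them. In bulk blood RNA, fewer cells of a type and less RNA per cell cannot be told apart.

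Several of the genes were measured from few counts. MMP8, neutrophil collagenase, had no count in 99 libraries, 132 counts in all and at most 12 in any library, and no level of it is compared. AZU1, which encodes azurocidin, an enzymatically inactive relative of the serine proteases, had no count in 30 libraries. ELANE, neutrophil elastase, had none in 4, and PGLYRP1, a peptidoglycan recognition protein, had none in 2. Levels are given as CPM, a gene's counts scaled to a common library size with TMM factors. A library with no count allows a level of up to 0.0486 to 0.0949 CPM. These limits are 3 counts in the deepest and the shallowest library and cover counting error only. They were taken before the TMM factors, which were 0.906 to 1.09. In the RefSeq gene order of cattle, AZU1, PRTN3 and ELANE lie side by side, BPI lies beside its relative LBP, MPO beside LPO, and CHI3L1 beside CHIT1. PRTN3, the proteinase between AZU1 and ELANE, was at 0 in 94 libraries and was not tested.

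One library stood apart. In the day 0 library of BRD INR animal 43, LTF was at 13.33 CPM against 0.0455 to 2.61 in the other 25 day 0 libraries, LCN2 was at 93.5 against 6.44 to 36.7, and MMP9 was at 62.4 against 0.653 to 28.56. CHI3L1 was at 201.6 CPM, the second highest value of day 0. All of these values lay above the animal's own later libraries, where LTF was at 0.281 to 1.58 CPM, LCN2 at 16.3 to 38.4, MMP9 at 1.24 to 4.903 and CHI3L1 at 20.3 to 51.9. The azurophil genes were not high there: MPO was at 0.429 CPM, among the lowest of day 0, ELANE had no count, AZU1 had 1 count, and BPI was at 11.6 CPM against 4.897 to 111.3 in the others. The calcium-binding neutrophil genes S100A8, S100A9 and S100A12, at 1055, 3067 and 4388 CPM, and the granule and membrane genes TCN1, PTX3, ALPL and CRISP3, at 346.6, 139.8, 250.3 and 2.92 CPM, lay above all other day 0 libraries. Of the other granule genes with a median above 0, CD177, SLC11A1, FCN1, SRGN, MME and CYBA lay at 2.26, 1.37, 1.25, 1.21, 1.19 and 1.16 times the day 0 median of the others, while LYZ, CYBB, ARG1, OLFM4, MMP25 and CTSC lay at 0.752, 0.597, 0.456, 0.776, 0.883 and 0.969 times it. Among monocyte markers CD163 and CD14 lay at 3.54 and 1.73 times the median, each the third highest of all libraries, and CX3CR1 at 0.308 times, the lowest of all. Of 3 eosinophil markers, IL5RA, the interleukin-5 receptor, was at 1.54 CPM, the lowest of all libraries, CCR3 was at 18.5 CPM against a median of 26.3, and SIGLEC8 was at 768.6 CPM, the second highest of day 0, against a median of 410.8. Of the platelet markers GP9, TUBB1 and PF4 lay at 4.98, 2.23 and 2.00 times the median, each within the range of the other libraries, the erythroid ALAS2 at 0.270 times, and the 5 proliferation markers at 0.631 to 0.845 times. Values without this library are given for changes of LCN2, CHI3L1, LTF and MMP9 and for day 0 comparisons of single genes. Label differences within a single treatment are given only with it.

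BPI, which encodes a protein that binds and neutralises the lipopolysaccharide of Gram-negative bacteria, fell in nearly every animal and stayed low. In healthy cattle its level was 4.897 CPM at the lowest, 32.18 at the median and 109.5 at the highest at day 0, and its medians were 11.4, 6.77, 8.55 and 6.63 CPM at days 13, 28, 45 and 60. In BRD cattle it was 11.4, 44.9 and 111.3 CPM at day 0, and the later medians were 10.4, 8.34, 6.64 and 6.86 CPM. The groups overlapped at each day, since the highest later values were 34.8 CPM in healthy and 37.8 CPM in BRD cattle, both at day 45, above the lowest of day 0. Within animals BPI was below its day 0 level in 23 of 25 at day 13, 26 of 26 at day 28, 24 of 26 at day 45 and 26 of 26 at day 60. The 2 exceptions at day 13 were BRD animals 16 and 17, whose day 0 levels of 11.4 and 12.5 CPM were already low, and those at day 45 were BRD animal 31 and healthy animal 50.

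In the fit with each animal as its own control (edgeR quasi-likelihood test, FDR over 18937 genes below 0.10 taken as passing), the log2 change of BPI from day 0 in all cattle, the mean of the healthy and the BRD change, was -1.94 (SE 0.21) at day 13, -2.37 (SE 0.20) at day 28, -2.10 (SE 0.20) at day 45 and -2.51 (SE 0.21) at day 60. That is 3.84-, 5.17-, 4.29- and 5.68-fold lower, with FDR of 1.09e-11, 4.09e-16, 1.03e-13 and 7.83e-17. Healthy cattle alone gave -1.78, -2.43, -1.94 and -2.34 and BRD cattle alone -2.10, -2.31, -2.26 and -2.67, each of which passed. The later days share the day 0 libraries, and the healthy, BRD and all-cattle changes share animals, so they do not stand as separate evidence. BPI was also the member with the most of its variance between days, 45.9% of it, which ranked it 37 of 18937 genes, against a median of 5.66% over all genes.

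**Figure D1:**
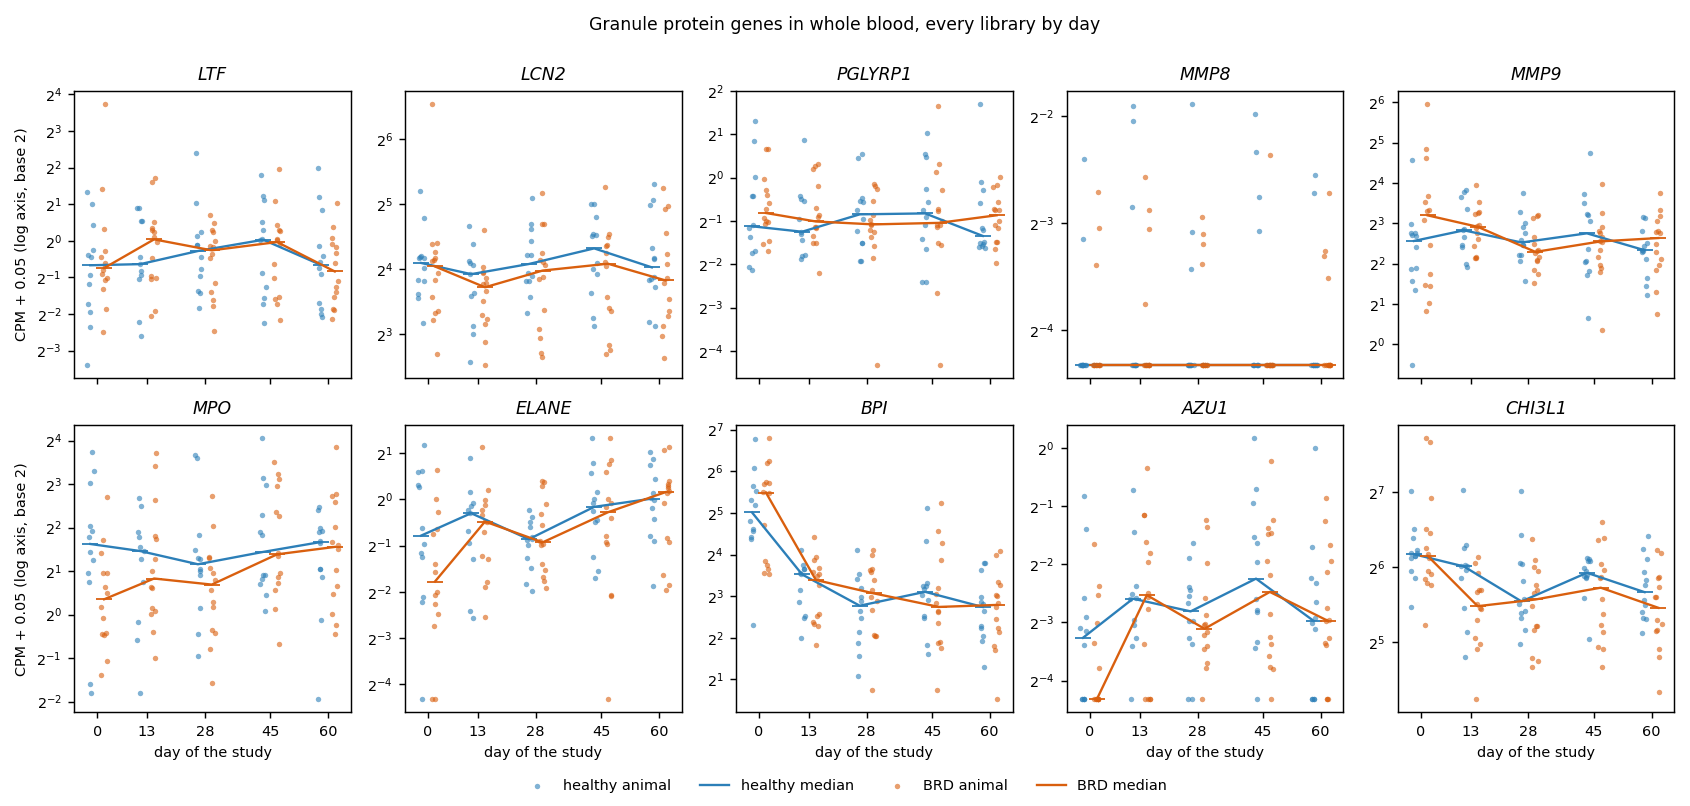
Levels of the granule protein genes in every library by day (CPM + 0.05 on a log axis of base 2), with healthy and BRD cattle in separate colours and lines through the group medians. BPI drops from medians of 32.18 CPM in healthy and 44.9 CPM in BRD cattle at day 0 to 6.63 and 6.86 at day 60, and the healthy and BRD points overlap in every panel.

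CHI3L1, which encodes a chitin-binding lectin of specific granules that macrophages also make, fell less. Its day 0 level was 44.39, 71.98 and 129.2 CPM (lowest, median, highest) in healthy cattle and 37.6, 70.8 and 209.9 CPM in BRD cattle, and at day 13 it was 27.9, 64.289 and 129.51 CPM in healthy and 18.9, 44.6 and 69.8 CPM in BRD cattle. The days overlapped in both. The log2 change in all cattle was -0.61, -0.62, -0.48 and -0.66 at days 13, 28, 45 and 60, with FDR of 0.000468, 0.000217, 0.00551 and 0.000107, and CHI3L1 was lower than at day 0 in 19 of 25, 22 of 26, 20 of 26 and 23 of 26 animals. In BRD cattle the fall was 1.92-, 1.76-, 1.59- and 1.82-fold and passed at each day (FDR 0.000234, 0.00165, 0.0108 and 0.000887, edgeR). Without the day 0 library of animal 43 the day 13 change in all cattle was -0.53 (FDR 0.000725). In healthy cattle the log2 changes of -0.28, -0.43, -0.29 and -0.46 did not pass (FDR 0.441, 0.120, 0.439 and 0.124), but without that library, which is of a BRD animal and bears on them through the shared fit, days 28 and 60 passed (-0.42, FDR 0.0827, and -0.46, FDR 0.0779, edgeR). The difference between the BRD and healthy changes did not pass either. It was widest at day 13, with log2 -0.67 and an FDR of 1 by edgeR.

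MPO, the peroxidase that makes hypochlorous acid, rose at days 45 and 60 in BRD cattle. Its level there was 0.335, 1.23 and 6.46 CPM at day 0 (lowest, median, highest), 0.452, 1.73 and 13.0 at day 13, 0.288, 1.56 and 6.60 at day 28, 0.581, 2.57 and 11.4 at day 45, and 0.691, 2.89 and 14.5 at day 60. The ranges overlapped throughout, and the medians of days 45 and 60 were above that of day 0. The log2 change from day 0 was 1.52 (SE 0.36, 2.86-fold, FDR 0.00198, edgeR) at day 45, with 13 of 14 animals higher, and 1.25 (SE 0.36, 2.39-fold, FDR 0.0135) at day 60, with 12 of 14 higher. At days 13 and 28 it was 0.80 and 0.38 and did not pass, with 12 and 7 of 14 higher. Healthy cattle began at a median of 3.03 CPM, within 0.237 to 13.2, were at 2.67 and 3.13 CPM at days 45 and 60, and gave log2 changes of -0.50, -0.35, 0.04 and -0.35, of which none passed. In all cattle MPO passed at day 45 (0.78, FDR 0.0191, edgeR), with 17 of 26 animals higher. The change in BRD cattle minus that in healthy cattle was 1.48 (95% interval 0.48 to 2.47) at day 45 and 1.60 (0.59 to 2.61) at day 60 on the log2 scale, with edgeR FDR of 0.986 and 1, so the 2 labels were not shown to differ in it.

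ELANE, the elastase that is stored beside myeloperoxidase, moved likewise. In BRD cattle it was 0, 0.242 and 1.504 CPM at day 0, 0, 0.774 and 2.45 at day 45, and 0.209, 1.06 and 2.14 at day 60. Days overlapped, with 13 of 14 animals above their own day 0 level at day 60. The log2 change was 1.22 (SE 0.39, 2.33-fold, FDR 0.0248, edgeR) at day 45 and 1.34 (SE 0.39, 2.54-fold, FDR 0.0137) at day 60. In healthy cattle the medians were 0.531 CPM at day 0 and 0.960 at day 60, and the log2 changes of -0.33, -0.55, 0.32 and 0.56 did not pass. In all cattle it passed at day 45 (0.77, FDR 0.0298, 19 of 26 animals higher) and at day 60 (0.95, FDR 0.00559, 21 of 26 higher). The day 60 value in BRD cattle was 0.91 (FDR 0.118) without animal 54 and 2.03 (FDR 0.00263) without animal 16, while that of day 45 was 1.08 to 1.73 and passed without any single animal.

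AZU1 had no count in 13 of 26 libraries at day 0 and in 5 of 25, 3 of 26, 2 of 26 and 7 of 26 at days 13, 28, 45 and 60. Its libraries held 82, 178, 134, 270 and 181 counts in all at the 5 days, with medians of 0.5, 5, 3, 6.5 and 4 counts. Counts were thus lowest at day 0 and highest at day 45, and single libraries with 0 to 48 counts overlapped between all days. The log2 change in all cattle was 1.19 at day 13 (FDR 0.048), 1.69 at day 45 (FDR 0.00276) and 1.04 at day 60 (FDR 0.0884) by edgeR, with 17 of 25, 19 of 26 and 16 of 26 animals higher, and at day 28 it was 0.75 (FDR 0.254), with 21 of 26 higher. The day 60 call was lost under 5 of 7 alternatives, among them DESeq2 (FDR 0.153) and no filter on low counts (FDR 0.123). In healthy and BRD cattle alone only day 45 passed, with 1.76 (FDR 0.0604) and 1.63 (FDR 0.0825). The healthy value no longer passed without animal 30, 34, 42, 46 or 57 (1.34 to 1.62), and the BRD value without animal 9, 17, 18, 21, 39, 41 or 54 (1.25 to 1.52), while it was 3.07 without animal 31.

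LCN2, lipocalin 2, which binds bacterial siderophores and so withholds iron, passed at day 13 only, where it was lower. Its level in BRD cattle was 6.44, 16.43 and 93.5 CPM at day 0 and 5.72, 13.2 and 24.3 CPM at day 13, and in healthy cattle the medians were 17.1 and 15.1 CPM within 8.95 to 36.7 and 5.88 to 25.4. The days overlapped almost wholly, yet 21 of 25 animals were lower. The log2 change was -0.34 (SE 0.11, FDR 0.0157, edgeR) in all cattle and -0.42 (SE 0.15, FDR 0.0452) in BRD cattle, with 12 of 14 lower, against -0.25 (FDR 0.368) in healthy cattle, with 9 of 11 lower. Without animal 43 the BRD value was -0.30 (FDR 0.110) and without animal 16 it was -0.35 (FDR 0.139), so that the BRD call rested on these animals, while without the day 0 library of animal 43 alone it was -0.32 (FDR 0.0991). Most of the variance of LCN2 lay between animals, 76.6% of it, against 4.01% between days and a median of 42.1% between animals over all genes.

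LTF, PGLYRP1 and MMP9 passed at no day. LTF encodes lactoferrin, which sequesters iron, and its level in all cattle was 0.0455, 0.547 and 13.33 CPM at day 0, 0.116, 0.691 and 3.24 at day 13, 0.130, 0.785 and 5.18 at day 28, 0.162, 0.962 and 3.86 at day 45, and 0.177, 0.576 and 3.92 at day 60. Its median was highest at day 45, where 17 of 26 animals were above their day 0 level, and the log2 change in all cattle was 0.39 there (FDR 0.437, edgeR). PGLYRP1 stood at medians of 0.464, 0.407, 0.444, 0.463 and 0.410 CPM at the 5 days. MMP9, gelatinase B, had medians of 6.44, 7.25, 5.21, 5.82 and 5.21 CPM, and its day 0 values of 0.653 to 62.4 CPM covered the range of all later days. In healthy and in BRD cattle the log2 changes of these genes lay between -0.68 and 0.47, none of 24 passed by edgeR, and 1 had an unadjusted p below 0.05, that of MMP9 in BRD cattle at day 28 (-0.68, FDR 0.135). Without the day 0 library of animal 43 that value was -0.37 (FDR 0.414), the BRD changes of LTF were 0.57, 0.31, 0.73 and 0.26 in place of 0.27, -0.02, 0.47 and -0.02, and none of the 24 passed or had an unadjusted p below 0.05.

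Counted together, 4 of the 9 tested members passed at day 13 in all cattle (1 higher, 3 lower), 2 at day 28 (both lower), 5 at day 45 (3 higher, 2 lower) and 4 at day 60 (2 higher, 2 lower). Over all 18937 genes 34.36%, 34%, 27.48% and 30.69% passed at these days, of which 17.28%, 17.56%, 14.23% and 15.58% were higher and 17.08%, 16.43%, 13.24% and 15.11% lower. In healthy cattle 1, 1, 2 and 1 members passed against 9.49%, 21.17%, 8.97% and 12.35% of all genes (1, 2, 2 and 2 without the day 0 library of animal 43, since CHI3L1 then passed at days 28 and 60), and in BRD cattle 3, 2, 5 and 4 members passed against 22.52%, 17.25%, 18.68% and 16.57%. The median log2 change of the members in all cattle was 0.03, -0.04, -0.01 and -0.03. BPI and CHI3L1 were lower at each day and LCN2 at day 13, AZU1 was higher at days 13, 45 and 60 (the last kept under 2 of 7 alternatives), ELANE at days 45 and 60, and MPO at day 45.

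**Figure D2:**
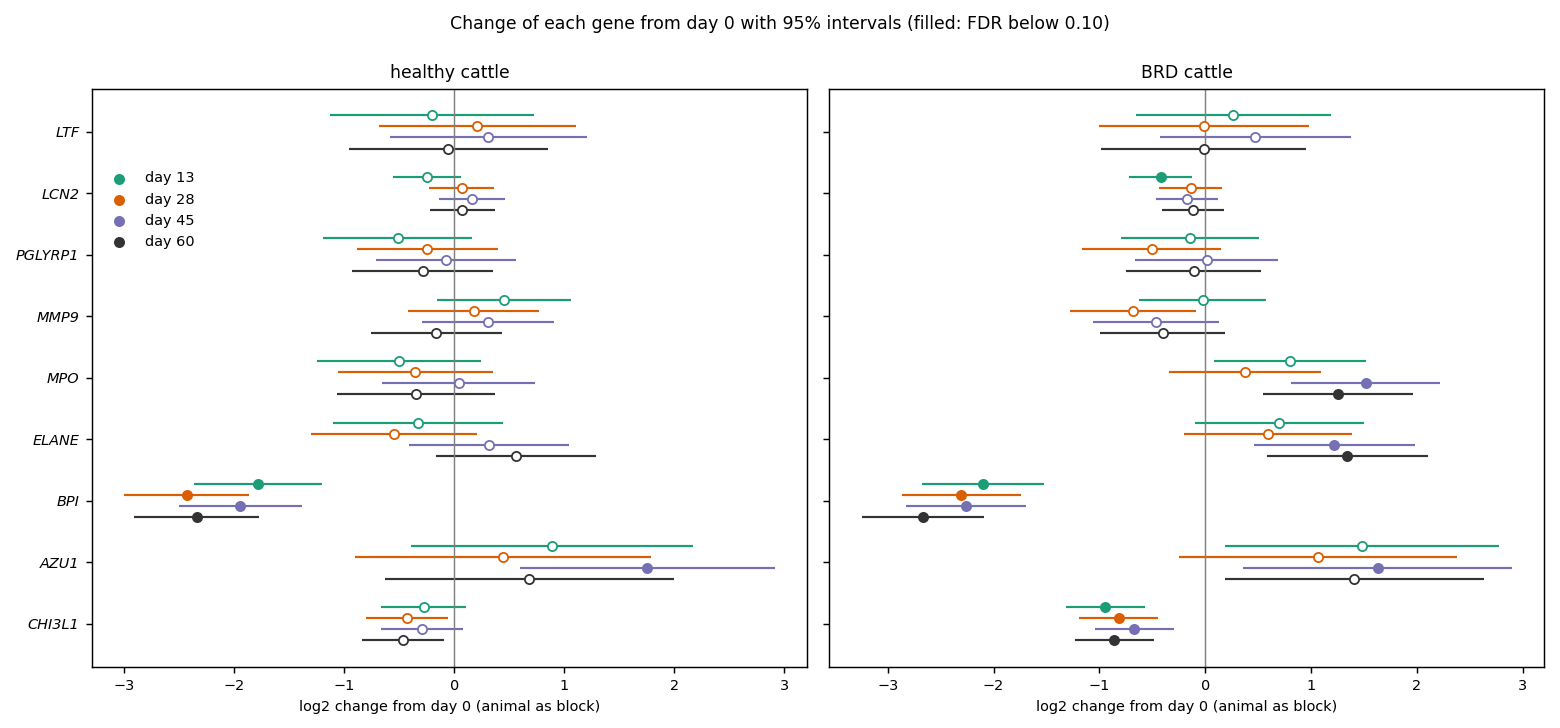
Log2 change of each tested gene from day 0 at days 13, 28, 45 and 60 in healthy and in BRD cattle, with 95% intervals from the fit with the animal as block, where filled points passed at an FDR below 0.10. BPI lies between -2.67 and -1.78 in both groups, CHI3L1 lies below 0 with BRD points that passed, and MPO and ELANE lie above 0 in BRD cattle at days 45 and 60.

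Genes that act with the members were counted in the same comparison, all cattle against day 0, in which 34.36%, 34%, 27.48% and 30.69% of all genes passed at days 13, 28, 45 and 60. Of 16 other granule genes tested, 2, 2, 3 and 2 were higher and 8, 7, 4 and 5 lower at these days. Ficolin FCN1, a lectin of granulocytes and monocytes, was lower by log2 -1.19 at day 13 and -1.22 at day 60, and SLC11A1, a divalent metal transporter of phagosomes, by -1.08 and -1.36. PTX3, the pattern-recognition pentraxin, was lower by -1.87 at day 13, while ARG1, arginase, was higher by 3.71 at day 13 and 2.78 at day 60, and MME, a membrane endopeptidase, was higher by 1.19 at day 60. Of 6 inhibitors and receptors, 1, 0, 0 and 0 were higher and 4, 3, 3 and 5 lower. Among them at day 13 were the endocytic receptor LRP1 (-0.49), TREM1, which amplifies neutrophil and monocyte activation (-1.21), the metalloproteinase inhibitor TIMP1 (-0.12) and the elastase inhibitor SERPINB1 (-0.21). Of 8 transcription factors of granule genes, 4, 4, 2 and 2 were lower and none was higher. At day 13 the lower ones were CEBPA (-0.37), CEBPE (-0.76), SPI1 (-0.17) and CEBPD (-1.02).

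Markers of whole cell types moved with these results, and their part in the results was not tested. Their counts stand against the same shares of all genes. Of 6 mature neutrophil markers in the table and tested, 4, 5, 3 and 5 were lower than at day 0 at days 13, 28, 45 and 60 in all cattle, and none was higher. S100A12, their most abundant gene at day 0, was lower by log2 -0.75 at day 13 and -0.90 at day 60, S100A8 by -0.79 and S100A9 by -0.68 at day 13. Their summed level had medians of 2662, 2085, 1869, 1955 and 1806 CPM at the 5 days, and no marker was at 0 in any library. Of 4 monocyte markers, 2, 2, 2 and 3 were lower and 1, CX3CR1, was higher at each day, with summed medians of 748, 593.4, 587, 663 and 624.8 CPM, led by CSF1R at day 0. CD14, the lipopolysaccharide co-receptor, was lower by -1.15 at day 13 and -1.39 at day 60, CD163, a scavenger receptor of haemoglobin, was lower by -1.60 at day 13, and CX3CR1, a marker of patrolling monocytes, was higher by 0.55 at day 13.

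Eosinophil markers moved beside MPO and ELANE. In BRD cattle CCR3, the eotaxin receptor, was higher by log2 0.75 at day 45 (FDR 0.013, edgeR) and 1.04 at day 60 (FDR 0.000443), and IL5RA was higher by 0.97 (FDR 0.0612) and 1.14 (FDR 0.0295), while SIGLEC8, the most abundant of the 3, was at -0.18 at day 60 (FDR 0.243). In healthy cattle none of the 3 passed at these days. Their summed level in BRD cattle had medians of 428, 406, 392, 474 and 451 CPM at the 5 days, and in healthy cattle of 517, 439, 472, 473 and 471 CPM, with no marker at 0 in any library. Their part in the change of MPO and ELANE was not tested. CEBPE, the factor that drives late granule genes in neutrophil and eosinophil precursors, changed by 0.20 and 0.48 in BRD cattle at days 45 and 60 and did not pass.

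Other blood cells moved differently. None of 5 T cell markers passed at any day in all cattle. The B cell genes CD79A, CD79B and MS4A1 did not pass either, with log2 changes of -0.08 to 0.17 at the 4 later days. Of 4 platelet markers 4, 4, 3 and 3 were higher, among them PF4 (0.66 at day 13). Of 4 erythroid markers 4, 2, 3 and 2 were higher. The summed erythroid level was 108.2, 1713, 695 and 1394 CPM at the median at days 0, 13, 28 and 45 and 662 CPM at day 60, most of it from HBB, a globin gene, which was higher by 3.61 at day 13. Proliferation markers were higher in 5, 5, 2 and 1 of 5, with TOP2A at 0.45 at day 13. CPM are shares of one library, so a rise in these genes lowers all others, and TMM scaling offsets that in part.

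Healthy and BRD cattle were compared at each day to ask whether the members differed by disease label. None of the 9 tested members passed at any of the 5 days, where 0.0158%, 0%, 0.00528%, 0% and 0.00528% of all genes passed (edgeR, 3, 0, 1, 0 and 1 genes). Of the 45 tests of members 3 had an unadjusted p below 0.05, and DESeq2 and limma voom called none of them either. MPO at day 0 had the smallest FDR of these: its level was 0.237, 3.03 and 13.2 CPM in healthy and 0.335, 1.23 and 6.46 CPM in BRD cattle. The groups overlapped, with the BRD median below the healthy one, and the log2 difference was -1.36 (95% interval -2.36 to -0.35, FDR 0.475), or -1.303 (FDR 0.624) without the day 0 library of animal 43. By treatment, it was 0.04 in AAC, -1.94 in COMBO and -2.17 in INR cattle. The 4 healthy COMBO animals were in pen 5 and the 3 BRD ones in pen 6, so that label and pen cannot be told apart there, and 4 of the 7 BRD INR animals were in pen 7, which held no healthy animal, while each AAC pen held both labels. ELANE at day 0 differed by -0.98 (FDR 0.663, edgeR), or by -0.89 (FDR 0.807) without the day 0 library of animal 43. CHI3L1 at day 13 differed by -0.51 (FDR 1) by edgeR.

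The intervals of the other members were wide enough to hold moderate differences. For BPI the BRD minus healthy difference was between -0.16 and 0.39 at the 5 days on the log2 scale, with 95% intervals that reached from -0.94 to 1.14. For LCN2 it was -0.42 to -0.08, with intervals from -0.95 to 0.45, and for LTF -0.62 to 0.05, with intervals from -1.58 to 1.097. By treatment, the LCN2 difference in AAC cattle, whose pens held both labels, was -1.04, -0.798, -1.26, -1.03 and -1.38 at the 5 days (FDR 0.250, 0.610, 0.199, 0.369 and 0.225, edgeR), where 3.08%, 0.29%, 1.52%, 0.354% and 0% of all genes passed, and 4 of the 5 had an unadjusted p below 0.05. The 5 days share animals, and 76.6% of the variance of LCN2 lay between animals, so the days do not stand as separate evidence. The AAC levels overlapped at each day. At day 60 they were 6.18, 8.75 and 14.5 CPM in 4 BRD and 8.64, 25.6 and 39.9 CPM in 4 healthy animals (lowest, median, highest). In COMBO and INR cattle it lay between -0.30 and 0.34, apart from 0.80 in INR cattle at day 0, the group with animal 43, and whether the treatments differ in it was not tested. The pooled LTF difference also averages treatments of opposite sign. At the 5 days it was 0.16, 2.08, 0.44, 0.87 and 1.39 in AAC and -1.57, -1.79, -1.203, -1.06 and -1.37 in COMBO cattle. In INR cattle it was 1.51, -0.12, -1.09, -0.88 and -0.91. The smallest FDR of these was 0.423 by edgeR. The INR value of day 0 includes the library of animal 43, with LTF at 13.33 CPM, and no value without it is given. PGLYRP1 lay between 0.42 and 1.74 in AAC, -1.53 and -1.198 in COMBO, and -0.37 and 0.32 in INR cattle, with a smallest FDR of 0.354 by edgeR. Of these tests 1 of LTF and 3 of PGLYRP1 had an unadjusted p below 0.05, and the difference between treatments was not tested. In COMBO cattle 5.54%, 0.00528%, 0.0158%, 0% and 0% of all genes passed between the labels and in INR cattle 0.00528%, 1.68%, 0.0106%, 0.0158% and 0.00528%. For MMP9 at day 0 the medians were 5.86 CPM in healthy and 9.12 CPM in BRD cattle. The BRD minus healthy difference was 0.57 (-0.12 to 1.26), and 0.38 (-0.29 to 1.05) without the library of animal 43. Within treatments, with that library kept, it was 0.32 in AAC, -0.60 in COMBO and 1.99 in INR cattle. The INR value had an unadjusted p of 0.00108 and an FDR of 0.342 by edgeR. The day 0 difference of LTF went from 0.03 to -0.45 (FDR 0.960, edgeR) without that library. The BRD minus healthy difference in the change from day 0 was tested for the same members, and 0% of all genes and none of 36 member tests passed at days 13 to 60 by edgeR. Of these 36, 6 had an unadjusted p below 0.05, of MPO at days 13, 45 and 60, CHI3L1 at day 13, ELANE at day 28 and MMP9 at day 28, and DESeq2 called none of the members. None of the genes of the marker and companion lists passed between the labels at any day.

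**Figure D3:**
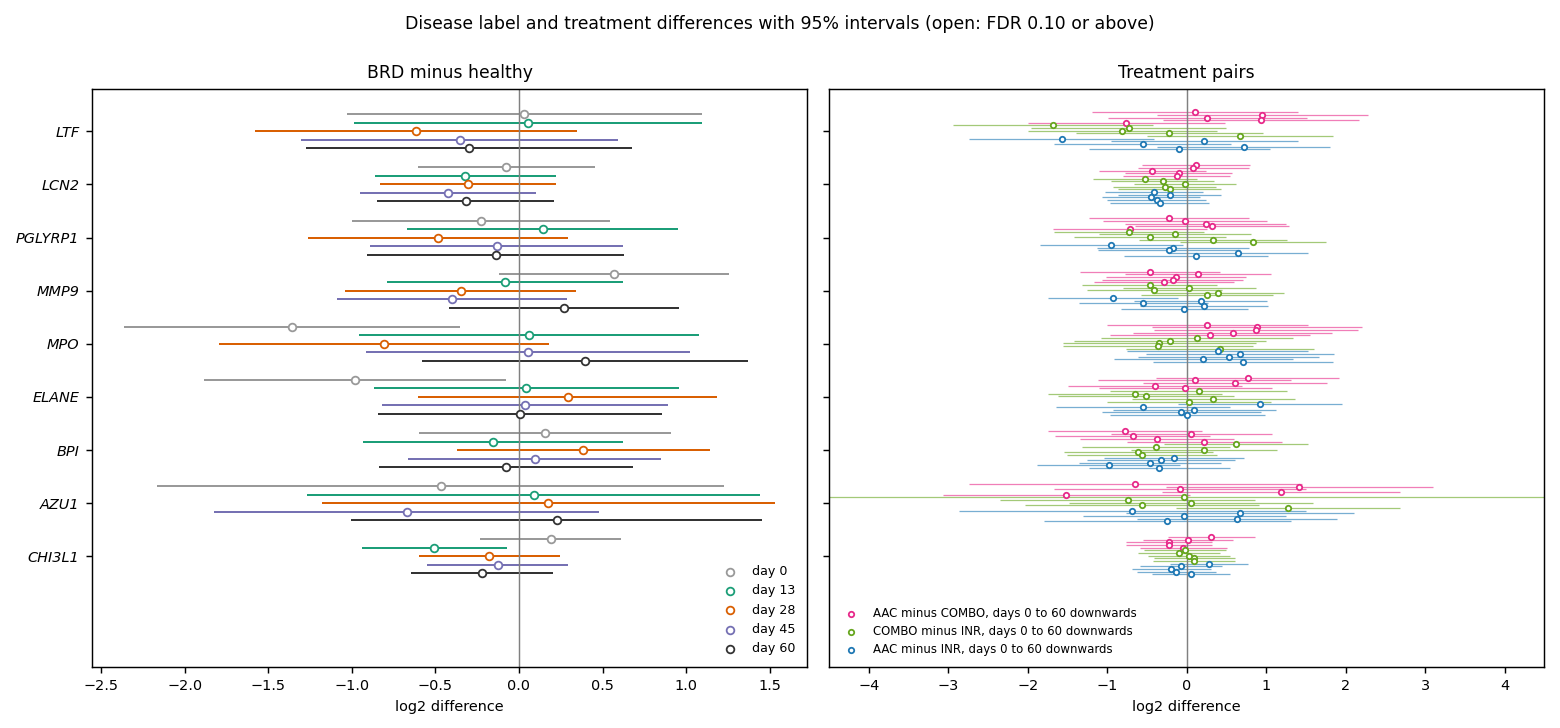
Log2 differences of the tested genes at each day with 95% intervals, BRD minus healthy and between each pair of treatments. Nearly all of the intervals cross 0, and no point passed at an FDR below 0.10. The interval of AZU1 for COMBO minus INR at day 0 runs past the axis.

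Treatments were compared over both labels at each day, with 8 AAC, 7 COMBO and 11 INR animals. None of the 135 tests of members passed by edgeR, DESeq2 or limma voom, with log2 differences of -1.68 to 1.42 and a smallest FDR of 0.475, and 5 had an unadjusted p below 0.05. The share of all genes that passed for AAC minus COMBO was 0.565%, 0.929%, 0.0317%, 0% and 0% at the 5 days, for COMBO minus INR 0%, 0%, 0%, 0% and 0.00528%, and for AAC minus INR 0%, 0.0422%, 0.0106%, 0% and 0%. Of the 5 tests, 4 were at day 0, the first day of the study. They were LTF in COMBO minus INR (log2 -1.68, FDR 0.558) and, in AAC minus INR, LTF (-1.57), PGLYRP1 (-0.95) and MMP9 (-0.93), each with an FDR of 1. The INR group holds animal 43. Without its day 0 library LTF was at -0.93 in COMBO minus INR (FDR 0.817) and, in AAC minus INR, LTF was at -0.83, PGLYRP1 at -0.84 and MMP9 at -0.63, each with an FDR of 1 by edgeR. In BRD cattle alone and without that animal's day 0 library, AAC minus INR at day 0 went from -2.25 to -0.75 for LTF, from -0.48 to -0.25 for PGLYRP1 and from -1.76 to -1.15 for MMP9, of which none passed. The fifth was BPI at day 45, at -0.98 in AAC minus INR (FDR 0.878, edgeR).

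The change from day 0, with each animal as its own control, was also compared between treatments. None of the 9 tested members passed in any of the 12 comparisons (edgeR, log2 differences of -1.43 to 2.25, smallest FDR 0.282), and 12 member tests had an unadjusted p below 0.05, of which 8 were of LTF or PGLYRP1, 3 of MMP9 and 1 of ELANE. The share of all genes that passed at days 13, 28, 45 and 60 was 2.12%, 0%, 0% and 0% for AAC minus COMBO, 0%, 0%, 0.00528% and 0.243% for COMBO minus INR, and 0% at each day for AAC minus INR. In AAC minus INR at day 45 the change of LTF differed by log2 2.199 (95% interval 0.75 to 3.64, FDR 0.762), that of PGLYRP1 by 1.63 (FDR 0.762) and that of MMP9 by 1.28 (FDR 0.906), and in COMBO minus INR at day 60 that of LTF by 1.97 (FDR 0.282). All of these share the day 0 libraries, where the INR medians were the highest of the 3 treatments, at 0.691 CPM for LTF, 0.699 CPM for PGLYRP1 and 7.89 CPM for MMP9. Without the day 0 library of animal 43 the 4 differences were 1.796, 1.44, 0.89 and 1.55, and 8 member tests had an unadjusted p below 0.05, again with none that passed. The 8 are not all among the 12. They include CHI3L1 in AAC minus INR at day 13 (-0.59, FDR 0.488) and day 28 (-0.63, FDR 0.883, edgeR), while some tests of LTF, PGLYRP1 and MMP9 dropped out.

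Within BRD cattle alone LTF passed in 2 treatment comparisons. At day 13 it was 1.03, 1.39, 2.98 and 3.24 CPM in the 4 AAC animals, 0.190, 0.214 and 0.445 CPM in the 3 COMBO animals, and 0.433, 0.927 and 1.23 CPM (lowest, median, highest) in the 7 INR animals. All 4 AAC values lay above all 3 COMBO values, but the share of all genes that part so in groups this small was not counted. The BRD libraries of that day held 7 to 151 counts of LTF. LTF was 7.39-fold higher in AAC than in COMBO at that day (log2 2.89, SE 1.03, FDR 0.0821, edgeR), where 9.29% of all genes passed, and the value was 2.87 (FDR 0.0642) without the day 0 library of animal 43. In healthy cattle the same difference was -0.98 (FDR 0.928), and whether the labels differ in it was not tested. At day 0 LTF was 0.429, 0.485, 0.608 and 0.782 CPM in AAC, 0.129, 0.223 and 0.523 CPM in COMBO, and 0.355, 0.691 and 13.33 CPM in INR cattle. COMBO minus INR was -3.21 (SE 1.003, FDR 0.0907) there, where 2.31% of all genes passed, and -1.73 (FDR 0.386) without the library of animal 43. All 3 BRD COMBO animals were in 1 pen, so that treatment and pen cannot be told apart.

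The members did not rise and fall as one group across libraries. Spearman's rho over all 59 healthy and 70 BRD libraries, which share 26 animals, 5 days and their depths and are given as a description, was 0.70 between LTF and PGLYRP1, 0.57 between MPO and ELANE, 0.44 between MPO and AZU1 and between BPI and CHI3L1, 0.43 between LTF and AZU1, 0.42 between LTF and MPO, 0.39 between PGLYRP1 and AZU1, and 0.37 between LTF and MMP9. The pairs of LTF or PGLYRP1 with MPO or AZU1 join specific and azurophil granule genes. After each animal's mean was taken out, rho was 0.71 for LTF and PGLYRP1, 0.62 for BPI and CHI3L1, 0.54 for LTF and MMP9, 0.47 for LTF and AZU1, 0.42 for LTF and MPO and 0.37 for MPO and ELANE. ELANE and BPI went opposite ways, at -0.31 over libraries and -0.44 within animals. BPI and MPO were at -0.17 and -0.28, although both encode azurophil proteins.

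Against the marker lists the members also parted. Of the 9 tested members, LTF, LCN2, PGLYRP1, MPO, ELANE and AZU1 had rho between -0.12 and 0.09 with the mature neutrophil markers over all libraries. Within single days these reached from -0.25 for LCN2 to 0.41 for LTF and 0.40 for PGLYRP1, and over the means of the animals from -0.36 for LCN2 to 0.31 for ELANE. CHI3L1 went with monocyte markers at rho 0.73 (0.82 within animals) and with neutrophil markers at 0.60 (0.78), and its closest single markers were CD14 at 0.76 and S100A12 at 0.72. BPI went with neutrophil markers at 0.45 (0.62 within animals, but -0.07 to 0.45 within single days). With the monocyte markers as a list it was at 0.32 (0.57 within animals, but 0.06 to 0.23 within single days). With CD14, 1 of these, BPI was at 0.58. MMP9 went with neutrophil markers at 0.49 (0.37 to 0.72 within single days) and with TCN1, the specific granule transcobalamin, at 0.63. MPO went with eosinophil markers at 0.68, between 0.50 and 0.83 within single days and 0.73 over the means of the 26 animals, and ELANE at 0.54. Of that list IL5RA was at 0.78 and CCR3 at 0.64 with MPO, while SIGLEC8 was at -0.01, and the factor CEBPE was at 0.78. Erythroid markers were at 0.44 with LTF, 0.41 with MPO and 0.40 with AZU1 (0.53, 0.45 and 0.56 within animals). LCN2 went with B cell markers at 0.66, between 0.47 and 0.85 within single days, and with CD79B, a chain of the B cell receptor complex, at 0.71. These values are across libraries of mixed cells and do not say which cells held the transcripts.

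**Figure D4:**
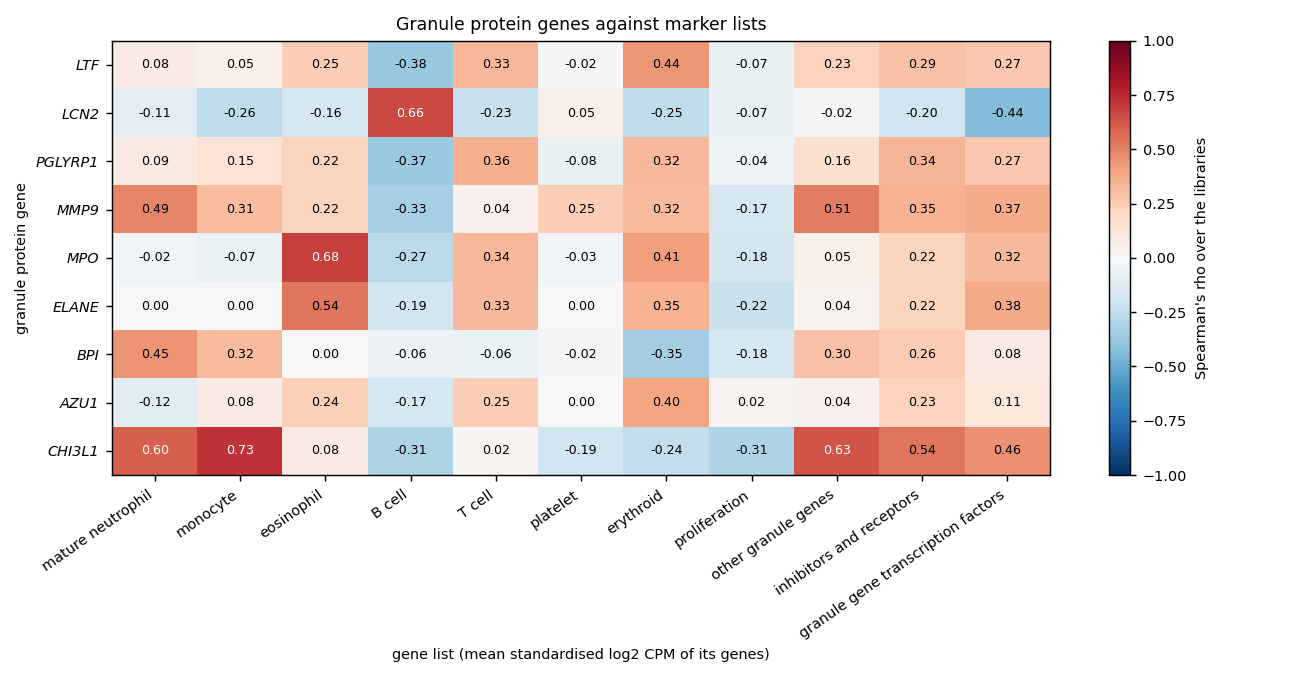
Spearman's rho over all libraries between each tested gene and the mean standardised log2 level of each gene list. MPO and ELANE have their highest values with eosinophil markers (0.68 and 0.54), CHI3L1 with monocyte markers (0.73) and LCN2 with B cell markers (0.66).

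The genes other than the members whose pattern was most like the mean of LCN2, MMP9, MPO, BPI and CHI3L1, the members with a median above 1 CPM, were S100A12 (rho 0.66), S100A9 (0.65), RBKS (0.63), HEBP1 (0.62), ALOX5AP (0.62), S100A8 (0.61), LAMTOR1 (0.61) and RAB5C (0.60) over all libraries. S100A8, S100A9 and S100A12 encode calgranulins of neutrophils and monocytes, and ALOX5AP encodes the activator of 5-lipoxygenase. A search for each gene on its own, added after the values were seen, gave ALOX5 and ALOX15, both lipoxygenases, at 0.86 for MPO, KIAA1211L at 0.77 for ELANE, SHISA5 at 0.77 and CD14 at 0.76 for CHI3L1, PROK2, a chemokine-like secreted protein of neutrophils, at 0.78 for MMP9, EPHX4 at 0.74 for LCN2, and LGALS3BP, a secreted galectin-binding protein, at 0.70 for BPI. With members left out, the closest gene to LTF was PRG3-2 at 0.55, below the 0.70 between LTF and PGLYRP1, and the closest to AZU1 was the same gene at 0.54. RNASE2 and PRG3 came next for both, at 0.52 and 0.51 for LTF and 0.49 and 0.48 for AZU1. The eosinophil marker list was at 0.25 with LTF and 0.24 with AZU1.

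By animal, the members differed in how much of their variance lay between animals. The share of variance between animals was 76.6% for LCN2, 61.22% for MPO, 47.48% for PGLYRP1, and between 32.9% for BPI and 41.7% for MMP9 for the other 6, against 42.1% at the median of all genes. Between days the shares were 45.9% for BPI, 18.7% for CHI3L1, 11.1% for ELANE and 10.7% for AZU1, all above the median of 5.66% over all genes, and 1.06% to 5.15% for the other 5. BPI thus varied more between days than between animals.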

How the data were processed

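Per the labels and the study's methods, the authors collected blood in Tempus tubes, made stranded mRNA libraries, trimmed reads with Trimmomatic 0.39, aligned them with HISAT2 to ARS-UCD1.3 and assembled them with StringTie 2.2.0. The deposited table holds raw counts per gene, which the authors derived with prepDE from StringTie coverage, so that they are estimates and not read tallies. Members and gene lists were chosen with earlier results of these data known. Libraries were grouped by disease label, treatment and day (30 groups). In R 4.3.3, edgeR 4.0.16 (filterByExpr, 18937 genes, TMM, common dispersion, quasi-likelihood F-tests, Benjamini-Hochberg FDR below 0.10 within each comparison) compared labels and treatments in the 30-group fit (biological coefficient of variation 39.0%). Changes from day 0 used an animal block (27.8%), because the numbers mark the same animals: deviations from the group means correlated at a median of 0.371 within and -0.0101 between animals, and no library pair was identical. Label contrasts average the 3 treatments equally, and animals are the replicates. Levels are TMM-scaled CPM, and correlations used log2 CPM with a prior count of 2. Always named were the 10 members, up to 4 genes of each list by smallest p in the comparison, and the 8 genes most like the members' mean. CTSG, CSF3R, FPR1 and EPX of these lists were not analysed here. DESeq2 1.42.0, limma 3.58.1 (voom), other filters, scalings, dispersions and leaving out animals were the alternatives, and the tests were checked on simulated data. MMP8, AZU1, PGLYRP1 and ELANE had the fewest counts.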

Additional observations from a re-analysis of the deposited data

Results flagged for a closer look

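In groups of 4 or 7 animals, 25 of 216 sets of values had a highest or lowest animal far from the others by Dixon's test. The test's rate of about 1 in 20 is for normal and separate values. The sets share animals across days, so that rate gives no chance count here. In each of the 25 flagged sets the animal was the highest. The day 0 library of BRD INR animal 43 gave 3 of them, LTF at 13.33 CPM, LCN2 at 93.5 CPM and CHI3L1 at 201.6 CPM.

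Healthy INR animal 30 was highest for LTF at day 28 (5.18 CPM), PGLYRP1 at day 60 (0.768 CPM), MPO at day 28 (12.1 CPM), ELANE at day 45 (2.45 CPM) and CHI3L1 at day 45 (67.8 CPM, the others at 58.04 to 59.5). BRD AAC animal 31 stood apart for LCN2 at day 28 (14.8 CPM), MMP9 at day 28 (8.74 CPM) and AZU1 at day 0 (0.267 CPM, the other 3 at 0).

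The other sets each concern 1 gene and day. For LCN2 they were BRD INR animal 29 at day 13 (24.3 CPM) and healthy COMBO animal 6 at day 60 (19.9 CPM), and for PGLYRP1 healthy AAC animal 34 at day 0 (0.691 CPM) and BRD INR animal 17 at day 13 (1.09 CPM). For MMP9 they were healthy COMBO animal 6 at day 0 (23.7 CPM), BRD AAC animal 21 at day 13 (15.29 CPM) and BRD INR animal 27 at day 45 (15.6 CPM). For MPO they were healthy AAC animal 46 at day 28 (12.6 CPM) and BRD INR animal 40 at day 45 (11.4 CPM), and for ELANE healthy COMBO animal 57 at day 0 (1.45 CPM) and BRD INR animal 40 at day 13 (2.14 CPM). BPI in healthy AAC animal 34 at day 60 (13.8 CPM) and AZU1 in BRD INR animal 39 at days 13 and 60 (0.402 and 0.367 CPM) complete them. No cause was tested for any of these values.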

How the results depend on the processing

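No called change from day 0 turned its direction: of 519 values of 34 called gene changes under the alternatives, 485 kept their call and 34 lost it. BPI passed at each day in healthy and BRD cattle without any single animal (log2 -2.56 to -1.57 and -2.83 to -1.75). Summed over the 4 later days, members passed 15 times in all cattle (10 to 15 under the alternatives), 5 times in healthy (4 to 7) and 14 times in BRD cattle (10 to 16). With no replicate block these were 11, 4 and 10, and LCN2 at day 13 (FDR 0.173 in all and 0.265 in BRD cattle), MPO at day 45 in all (0.179) and day 60 in BRD cattle (0.166), ELANE at day 45 in all (0.133) and BRD cattle (0.102) and AZU1 at days 45 and 60 lost their calls, apart from AZU1 at day 45 in all cattle. AZU1 at day 60 in all cattle was also lost under DESeq2, a trended dispersion, no filter and voom with the animal as random block, LCN2 at day 13 in BRD cattle under voom, and AZU1 at day 45 in healthy cattle under DESeq2, a trended dispersion and voom and in BRD cattle under a trended dispersion and no filter. ELANE, AZU1, LTF and PGLYRP1, each with a median below 1 CPM, could not be tested under the stricter filter of 1 CPM, which kept 13432 genes. Leaving out each animal gave 4 to 6 member calls in healthy and 12 to 16 in BRD cattle, and 0 between labels and treatments. Between labels and treatments no alternative called a member except treatment pairs in BRD cattle alone, which gave 2, both LTF. RLE scaling moved the median gene by at most 0.0182 log2.

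Over all genes and days, calls went from 23960 to 14225 in all, 9842 to 3146 in healthy and 14207 to 5720 in BRD cattle with no replicate block. Between labels 5 calls became 235 under DESeq2, 72 with treatment left out, 10 under the stricter filter, 0 with each day fitted alone, 8 under voom, and 992, 1054 and 326 within AAC, COMBO and INR. Between treatments 300 became 1534 under DESeq2, 170 under voom, 6282 in BRD and 177 in healthy cattle alone, and the 193 of days 13 to 60 became 448 as changes from day 0, and AAC minus COMBO, with 0.565% and 0.929% of 18937 genes at days 0 and 13, had 40 and 69 genes of 26992 with no filter. The difference in change went from 0 to 157 under DESeq2. Without single animals the label comparison at day 0 called 0 to 317 genes, AAC minus COMBO 0 to 1100 at day 0 and 5 to 425 at day 13, and COMBO minus INR at day 0 0 to 383. The causes were not tested. Leaving out animals was not run for the change in all cattle and for the difference in change. Alternatives without the day 0 library of animal 43 were added after the data were seen.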
